A study of Homo sapiens with 8 samples.

Results

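Footprints of ribosomes were followed over 9 genes of the ADP-ribose cycle in OVCAR3, a human cell line established from an ovarian cancer. The set holds the 6 erasers OARD1 (which encodes TARG1), PARG, MACROD1, MACROD2, ADPRS and ADPRH, and the 3 genes that act when ADP-ribose is written at DNA breaks, PARP1, PARP2 and HPF1. The genes were taken by name, with earlier results of these data known, and no measured value entered the rule. Each matched exactly 1 of the 20165 gene regions in the count files, and all 9 passed the filter on low counts in both comparisons.

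ADP-ribosylation is a protein modification in which PARP enzymes transfer ADP-ribose from NAD+ onto amino acid side chains, either as a single unit (mono-ADP-ribosylation, MARylation) or as chains (PARylation). PARP1 and PARP2 bind broken DNA and, with HPF1 completing their active site, modify serine residues. PARG trims the chains, ADPRS removes ADP-ribose from serine, the macrodomain enzymes TARG1, MACROD1 and MACROD2 remove it from acidic residues, and ADPRH removes it from arginine.

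The study asked how MARylation of RACK1, a protein of the small ribosomal subunit, and its removal by TARG1 bear on translation. Ribosome profiling (Ribo-seq), which sequences the mRNA fragments that ribosomes protect from nuclease, was done in 4 groups of 2 libraries, all harvested at 48 h. The siControl and siTARG1 cells were OVCAR3 cells transfected with 30 nM of a control siRNA or of siRNA against OARD1. The RACK1-WT and RACK1-Mut cells both carried a doxycycline-induced shRNA (pTRIPZ vector) that depletes the cells' own RACK1. Both also carried a doxycycline-induced, HA-tagged RACK1, wild type in the former and mutated at its MARylation sites in the latter. Doxycycline was given at 1 µg/ml. The lines were made by lentiviral infection and antibiotic selection, so both groups share the RACK1 knockdown, the drug and the vectors, whereas the siRNA groups had neither vector nor drug.

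Counts over coding sequences summed to between 3100947 and 6604190 footprints per library. The epithelial marker list (PAX8, WT1, MUC16, EPCAM, keratins and others) had counts for all 12 genes in every group. Its summed density, in coding footprints per kb of coding sequence per 1000000 coding counts, was 7013 to 7126 in siControl, 4707 to 5120 in siTARG1, 8233 to 8636 in RACK1-WT and 8255 to 8610 in RACK1-Mut. Markers of fibroblasts summed to at most 9.803, of leukocytes to at most 11.6 and of endothelium to at most 0.3378, and CDH5 was at 0 in every group. The part of the lower epithelial sum of siTARG1 in the results below was not tested. The study's methods describe the replicates of its sequencing experiments as independent biological samples.

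A footprint is a read of about the length of the 28-base windows below, so it can be assigned to a gene only where such a window is particular to that gene. The windows are printed 5′ to 3′ on the coding strand, from the GRCh37 (hg19) genome, to show where counts of the 9 genes are and are not unique. Capitals mark the start codon.
OARD1: ATGgccagcagccttaatgaagatccag
PARG: ctttttaatcaatcctgagttgattatt
PARP1: agagaatgaaattaactcttaaaggagg
HPF1: caaagaaaaattgtataattgttccaaa
The OARD1 window opens its coding sequence (chr6:41039346-41039373, minus strand) and matches no annotated transcript of another gene. The PARG window (chr10:51065404-51065431, minus strand) also occurs in 4 other genes, among them the pseudogene PARGP1. The PARP1 window (chr1:226567297-226567324, minus strand) also occurs in the pseudogene PARP1P1, and the HPF1 window (chr4:170669922-170669949, minus strand) in 1 other annotated gene.

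Over whole coding sequences, 722 of 1446 windows of PARG (49.93%) are shared with other genes, 376 of 1011 of HPF1 (37.19%) and 380 of 3015 of PARP1 (12.6%). OARD1, MACROD1, MACROD2, ADPRS, ADPRH and PARP2 share none. None of the genes that hold the shared windows has a count region of its own, so the files do not show how many reads they drew. Counts of PARG, HPF1 and PARP1 are uncertain to that extent. The PARG region is a single transcript whose model on this build has no 5′ UTR and 1476 coding bases. Exons of 2 genes on the opposite strand overlap the PARP2 coding sequence.

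TARG1 was the target of the siRNA, and its footprints were checked first. OARD1 (chr6:41001366-41065526, minus strand) had coding counts of 138 and 58 under control siRNA and of only 7 and 6 under siTARG1, where the exact 95% Poisson intervals were 2.81 to 14.4 and 2.2 to 13.1. These are 121.3 and 69.14 normalized counts (counts scaled between libraries by DESeq2) in siControl and 5.827 and 6.747 in siTARG1. Both siTARG1 libraries lay far below both siControl libraries, and the siControl libraries themselves differed from each other. OARD1 fell by 3.94 on the log2 scale (SE 0.557, DESeq2 adjusted p = 9.31e-11), to 6.6% of its control mean with a 95% interval of 3.06 to 13.9%. Footprints follow both the amount of an mRNA and its translation, and RNA levels were not analysed here. In libraries made from whole cultures, fewer cells with the mRNA and less mRNA per cell cannot be told apart.

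None of the other erasers passed the test in siTARG1. PARG (chr10:51026325-51130715, minus strand), the hydrolase of ADP-ribose chains, had 88.77 and 58.41 normalized counts in siControl and 95.72 and 94.46 in siTARG1. The siTARG1 libraries were above both controls, by 0.36 on the log2 scale (SE 0.318, DESeq2 adjusted p = 0.514), and the gap between the control libraries was larger than that between the group means. ADPRS (chr1:36554493-36559533, plus strand), the serine ADP-ribosylhydrolase, had 208.3 and 247.9 in siControl and 258 and 236.2 in siTARG1. The groups overlapped, with a log2 difference of 0.12 (SE 0.19) and an interval of 84.0 to 141% of control.

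MACROD1 (chr11:63766030-63933585, minus strand), a macrodomain hydrolase known from mitochondria, had 156.4 and 157.3 normalized counts in siControl and 171.5 and 149.6 in siTARG1. MACROD2 (chr20:13976015-16033842, plus strand), its close relative, had 21.97 and 26.22 in siControl and 25.8 and 37.11 in siTARG1. Both genes overlapped between the groups, at log2 differences of 0.04 (SE 0.225) and 0.38 (SE 0.53). ADPRH (chr3:119298115-119308792, plus strand), the arginine hydrolase, held only 4 to 11 coding counts per library of this experiment. Its interval ran from 41.2 to 541% of control, so changes of either sign within that range are not excluded at this depth.

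Among the genes of ADP-ribose writing, PARP1 (chr1:226547911-226595855, minus strand) was the deepest measured. It had 765.5 and 764.1 normalized counts in siControl and 749.1 and 717.5 in siTARG1. The siTARG1 libraries were lower by 0.06 on the log2 scale (SE 0.112, DESeq2 adjusted p = 0.799), and the interval kept PARP1 between 82.4 and 112% of control.

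PARP2 (chr14:20811774-20826063, plus strand), the second PARP activated by DNA breaks, had 36.91 and 42.91 normalized counts in siControl and 67.42 and 62.97 in siTARG1. Both siTARG1 libraries were above both controls, at 0.72 on the log2 scale (SE 0.384). That difference did not pass by DESeq2 (adjusted p = 0.209) and passed by the edgeR quasi-likelihood test (adjusted p = 0.038). HPF1 (chr4:170650621-170679095, minus strand) had 149.4 and 169.3 in siControl and 119.9 and 103.5 in siTARG1. Both siTARG1 libraries were below both controls, at -0.51 on the log2 scale (SE 0.245). HPF1 too did not pass by DESeq2 (adjusted p = 0.152) and passed by edgeR (adjusted p = 0.0243).

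**Figure D1:**
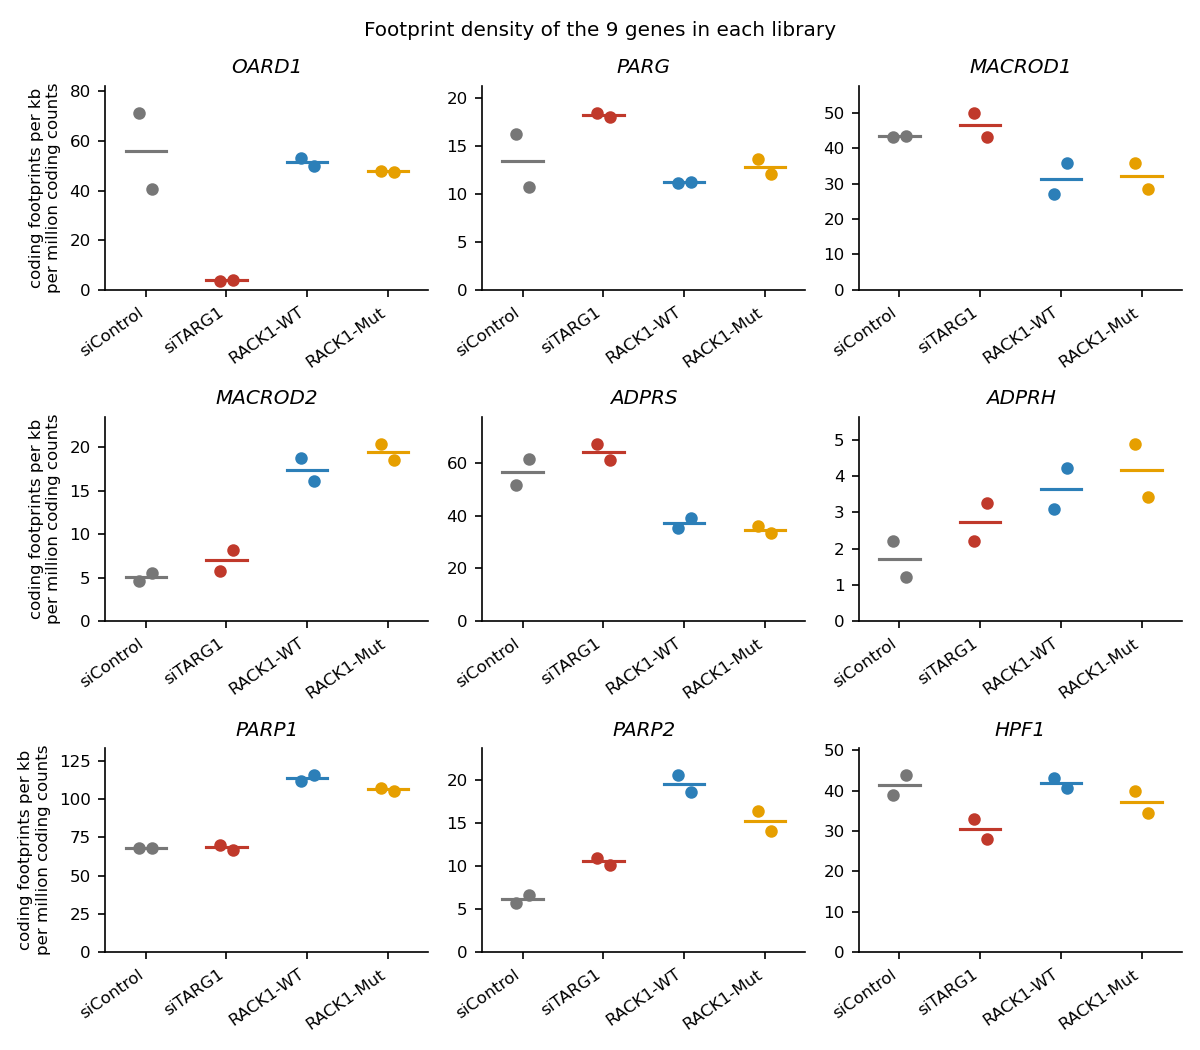
Coding footprints per kb of coding sequence per 1000000 coding counts of the library (y axis, from 0, a scale of its own in each panel) for each of the 9 genes in the 4 groups. Points are libraries and lines are means of 2 libraries. OARD1 lies at 3.624 and 4.156 in siTARG1 against 40.75 and 71.45 in siControl, and MACROD2, PARP1 and PARP2 are higher in both RACK1 groups than in both siRNA groups.

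The calls were then read against those of all genes. DESeq2 called 1 of the 9 genes in siTARG1, where it called 16.4% of the 12056 genes tested (9.19% lower and 7.18% higher). edgeR called 3 of the 9, against 28.8% of all genes. With OARD1, the siRNA target, included, both shares are near those of all genes. OARD1 was the only gene of the set that DESeq2 called, and none of the other 8 passed. Of those 8, edgeR called PARP2 and HPF1. For 4 of the 8 genes other than OARD1, the siTARG1 values stood clear of the siControl values, with PARG and PARP2 higher and PARP1 and HPF1 lower in siTARG1 on normalized counts. On the density scale PARP1 overlapped, at 67.98 and 67.89 in siControl and 70.24 and 66.62 in siTARG1. The same separation on normalized counts held for 62.6% of all genes. The median log2 difference of those 8 genes was 0.24, against 0.00315 over all genes tested.

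**Figure D2:**
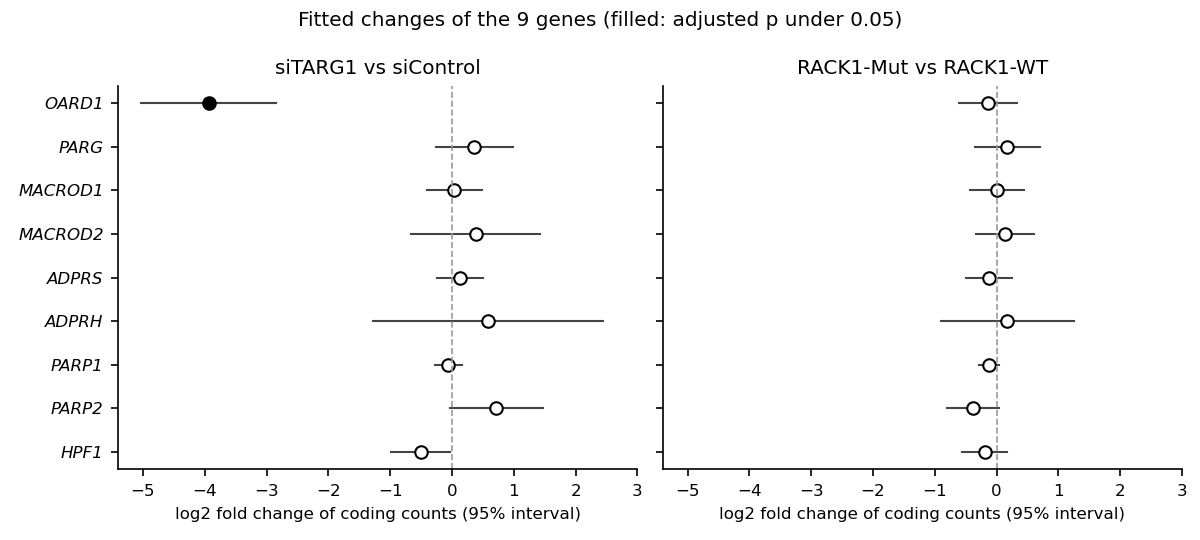
Fitted log2 fold changes of coding counts (x axis) for the 9 genes in siTARG1 against siControl (left) and RACK1-Mut against RACK1-WT (right), with 95% intervals as lines. Filled points passed DESeq2 at the adjusted threshold. OARD1 in siTARG1, at -3.94, is the only filled point.

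The eraser makeup of the cells was then compared as shares of the summed footprint density of the 6 erasers, a scale that corrects for coding length. OARD1 made up 37.7 and 24.98% of eraser density under control siRNA, whereas it made up 2.45 and 3.01% under siTARG1. Over exons in place of coding sequences, where the long UTRs of OARD1 count as length, the shares were 10.5 and 6.643% and then 0.6709 and 0.6863%. With OARD1 low, ADPRS held 45.7 and 44.3% in siTARG1, against 27.2 and 37.6% in siControl, and MACROD1 held 33.9 and 31.3% against 22.8 and 26.7%. A share must rise when another falls, so the densities of the 5 other erasers were also summed. They came to 118 and 122.4 in siControl and 144 and 133.9 in siTARG1. Both siTARG1 libraries were higher, by 18.8 on average, with an exact two-sided permutation p = 0.33, the smallest that 2 against 2 libraries allow. Part of that rise is the scale, since density places siTARG1 higher than normalized counts do. PARP1, for example, was at 95.9% of control on normalized counts, with mean densities of 67.93 in siControl and 68.43 in siTARG1. On the authors' RPKM scale, which divides by all alignments of a library, the same sum was 45.85 and 32.71 in siControl and 49.88 and 34.49 in siTARG1, and the groups overlapped (exact permutation p = 0.67). Replicates differ on that scale for PARP1 too, at 26.42 and 18.14 in siControl, where its densities were 67.98 and 67.89. The overlap on RPKM therefore does not decide whether the sum rose. Over exons the sum was 75.93 and 77.56 against 91.85 and 83.48, with no overlap.

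**Figure D3:**
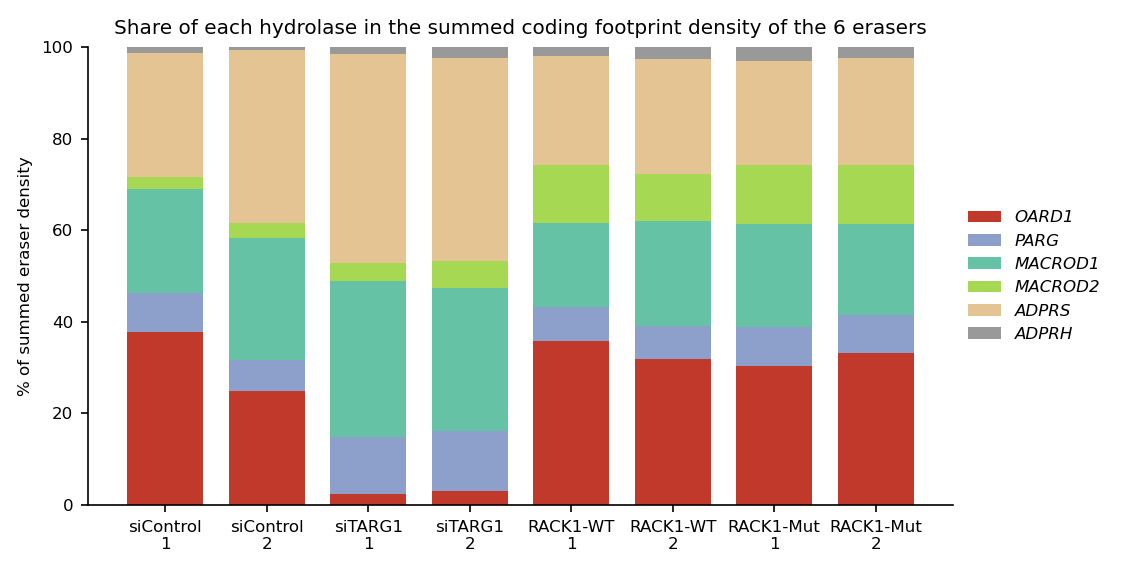
Stacked bars give the percentage (y axis, 0 to 100) that each of the 6 erasers contributes to their summed coding footprint density in each of the 8 libraries. OARD1 takes 24.98 to 37.7% in the 6 libraries without siRNA against it and 2.45 and 3.01% in siTARG1. MACROD2 takes 10.3 to 12.9% in the RACK1 libraries and 2.45 to 5.94% in the siRNA libraries.

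The density of PARP1 was set against that of HPF1, its cofactor. The ratio was 1.752 and 1.543 in siControl and 2.137 and 2.371 in siTARG1, so the groups did not overlap (exact permutation p = 0.33, again the smallest possible). In RACK1-WT it was 2.602 and 2.859 and in RACK1-Mut 2.68 and 3.069, where the groups overlapped (exact permutation p = 0.67). Part of both genes' windows is shared with other genes, as given above.

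In RACK1-Mut against RACK1-WT, DESeq2 called 0 of the 9 genes, with 0 at an unadjusted p under 0.05, and all 9 had an adjusted p of 1. It called 0.0799% of the 12520 genes tested. edgeR also called 0 of the 9, with 1, PARP2, at an unadjusted p under 0.05, and called 0.24% of all genes. On normalized counts, libraries did not overlap for 6 of the 9 genes, against 37.6% of all genes. The median log2 difference of the set was -0.12, against -0.00168 over all genes.

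OARD1 had 124.4 and 116 normalized counts in RACK1-WT and 109.8 and 109.4 in RACK1-Mut. The mutant libraries were below both wild-type libraries by 0.13 on the log2 scale (SE 0.239), an interval of 65.9 to 126% of RACK1-WT. PARP1 had 1741 and 1784 in RACK1-WT and 1627 and 1610 in RACK1-Mut. It was lower by 0.12 on the log2 scale (SE 0.0834) in both mutant libraries, an interval of 82.0 to 103%. PARP2 had 184.7 and 164.2 in RACK1-WT and 143.2 and 123.9 in RACK1-Mut. That was the largest difference of the 9, at -0.38 on the log2 scale (SE 0.213), with an interval of 57.3 to 102%. HPF1 had 228.8 and 213.3 in RACK1-WT and 207.6 and 179.3 in RACK1-Mut, at -0.19 on the log2 scale (SE 0.185).

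Of the remaining erasers, ADPRS had 196.3 and 216.5 normalized counts in RACK1-WT and 195.6 and 183.2 in RACK1-Mut, the latter below by a narrow margin, and on the density scale the groups overlapped. PARG had 84.25 and 84.16 in RACK1-WT and 100.2 and 89.64 in RACK1-Mut and was the single gene of the set with both mutant libraries higher. MACROD1, MACROD2 and ADPRH overlapped between the groups, at log2 differences of 0.01, 0.14 and 0.17. The OARD1 share of eraser density was 35.8 and 31.9% in RACK1-WT and 30.3 and 33.1% in RACK1-Mut and overlapped too.

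Whether a gene responded differently to the loss of TARG1 and to the RACK1 mutation was tested as an interaction in a fit of all 8 libraries, where 12.3% of 12955 genes passed by DESeq2. OARD1 and PARP2 passed, 2 of the 9. For OARD1 the change in siTARG1 minus that in RACK1-Mut was -3.81 (SE 0.562, adjusted p = 8.61e-10), which repeats the knockdown. For PARP2 it was 1.11 on the log2 scale (SE 0.368, 95% interval 0.39 to 1.83, adjusted p = 0.0222), a 2.16-fold ratio of the fold changes, with PARP2 on the higher side in siTARG1 and on the lower side in RACK1-Mut. The PARP2 call was lost when any of 7 of the 8 libraries was left out (adjusted p = 0.0618 to 0.186), while its size stayed at 0.998 to 1.22 on the log2 scale over the 8 fits, and it held without siControl replicate 2 (adjusted p = 0.0489). With a term for the replicate number it was lost as well (adjusted p = 0.147), and by edgeR it held (adjusted p = 0.00174). For the other 7 genes the interaction adjusted p ran from 0.54 to 0.967.

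The genes were ordered by mean coding density within a group, a length-corrected level. PARP1 had the highest mean in every group, at 67.93 in siControl, 68.43 in siTARG1, 114.1 in RACK1-WT and 106.4 in RACK1-Mut. Its siTARG1 libraries overlapped those of ADPRS. Its siControl libraries overlapped those of OARD1, which in replicate 1 stood at 71.45, above PARP1 at 67.98. By mean, PARP1 was followed in siControl by ADPRS at 56.5, OARD1 at 56.1, MACROD1 at 43.39 and HPF1 at 41.4, of which each neighbouring pair overlapped between libraries. PARG (13.48), PARP2 (6.162), MACROD2 (5.1) and ADPRH (1.707) followed, each with both libraries above the next. In siTARG1, OARD1 moved to the eighth place at 3.89, above ADPRH at 2.735.

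In RACK1-WT the order below PARP1 was OARD1 at 51.61, HPF1 at 41.83, ADPRS at 37.26 and MACROD1 at 31.44, of which the last pair overlapped. PARP2 at 19.62 and MACROD2 at 17.41, which overlapped, then stood above PARG at 11.24, unlike in siControl. RACK1-Mut kept PARP1, OARD1, HPF1, ADPRS and MACROD1 in the same leading places, and MACROD2 (19.48) was above PARP2 (15.27) in both libraries. ADPRH was lowest in all 4 groups, at 4.169 in RACK1-Mut.

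Levels also differed between the control groups of the experiments, which is given without a test because the constructs, the drug and the transfection differ together and cannot be told apart. On counts normalized over all 8 libraries, MACROD2 was 3.4-fold higher in RACK1-WT than in siControl, with means of 95.59 ± 11.1 and 28.09 ± 3.52 (SD, n = 2). PARP2 was 3.17-fold higher (147.7 ± 12.4 and 46.52 ± 4.97), ADPRH 2.14-fold and PARP1 1.67-fold (1492 ± 23.8 and 891.3 ± 0.663). ADPRS was 1.52-fold and MACROD1 1.39-fold higher in siControl. The groups overlapped for OARD1, PARG and HPF1, the last at 187 ± 9.48 and 185.7 ± 16.5. For 6 of the 9 genes all libraries of a group lay beyond those of the other, against 72.3% of 12532 genes, and means were at least 2-fold apart for 3, against 20.0%.

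The position of footprints along the transcripts separated some members. Over all 8 libraries, 63 of 758 exon counts of OARD1 lay in its 5′ UTR, a share of 8.31% (Wilson 95% interval 6.55 to 10.5%), and 10 of 131 of ADPRH (7.63%, 4.2 to 13.5%). For PARP1 it was 53 of 10128 (0.523%, 0.4 to 0.684%), for HPF1 9 of 1424 (0.632%) and for ADPRS 1 of 1794 (0.0557%). Over all genes the 5′ UTR share was 3.81 to 4.29% per library. The pooled share of OARD1 lay above and that of PARP1 below that range. By library OARD1 was uneven, at 2.8 and 12.1% in siControl, the former below that range. It was 6.36 and 12.7% in RACK1-WT and 7.07 and 8.51% in RACK1-Mut. Of the 10 counts of ADPRH, 5 came from replicate 2 of RACK1-WT. The annotated 5′ UTR of OARD1 is 562 bases beside 459 coding bases, and that of ADPRS is 30 bases beside 1092, so the shares follow lengths as well as occupancy.

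In siTARG1 the 5′ UTR of OARD1 kept 3 of 10 and 1 of 7 exon counts, against 4 of 143 and 8 of 66 in siControl, too few for a comparison. In the 3′ UTR, MACROD2 held 59 of 664 exon counts (8.89%, 6.95 to 11.3%). That share was uneven between replicates, at 4 of 164 and 23 of 151 in the RACK1-WT libraries. These intervals cover counting error only.

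Genes around the cycle were read from 3 lists, which were chosen with earlier results of these data known. Of the 6 other enzymes of ADP-ribose with a region (such as NUDT5, which hydrolyses free ADP-ribose), 1 was called in siTARG1. DESeq2 called 16.4% of all genes there. NUDT9, an ADP-ribose pyrophosphatase, had 102.8 and 119.2 normalized counts in siControl and 184.8 and 186.7 in siTARG1 and rose by 0.75 on the log2 scale (SE 0.234, adjusted p = 0.012). NUDT5, the most abundant of the list, had 303.2 and 370.7 and then 367.1 and 370 (adjusted p = 0.659). The median of the list was -0.19, on the opposite side of 0 from its called gene.

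Of 9 tested readers of ADP-ribose, 1 was called in siTARG1, beside the 16.4% of all genes. PARP14, a macrodomain protein that also writes MARylation, had 2571 and 2097 in siControl and 2788 and 2773 in siTARG1, a rise of 0.25 on the log2 scale (adjusted p = 0.0426) that was lost with exon counts, with a term for the replicate number, and without siControl replicate 2 or either siTARG1 library. The list's median was 0.09.

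Of 21 tested genes of single-strand break and base excision repair, a process that PARP1 and PARP2 serve, 6 were called in siTARG1, 4 higher and 2 lower, and the median was 0.22. UNG, the uracil glycosylase, went from 297.1 and 318.3 to 437.8 and 446.4 (0.53, adjusted p = 0.00518). FEN1, the flap endonuclease, went from 711 and 712.8 to 950.6 and 904.1 (0.38, adjusted p = 0.00452). LIG1, a DNA ligase, and PCNA, the sliding clamp, rose by 0.41 and 0.38 (adjusted p = 0.0346 and 0.0243). These 4 also act in DNA replication. MPG, the alkyladenine glycosylase, went from 125.7 and 122.8 to 69.92 and 74.22 and fell by 0.79 (adjusted p = 0.0333). The share called in this list was 6 of 21, beside the 16.4% of all genes.

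No gene of the 3 lists was called in RACK1-Mut by DESeq2, and 0 had an unadjusted p under 0.05. The most abundant genes of each list there were NUDT5 at 473 and 469 in RACK1-WT and 466.4 and 437.7 in RACK1-Mut, DTX3L, an E3 ligase that partners PARP9, at 1524 and 1432 and then 1513 and 1548, and PCNA at 1285 and 1299 and then 1164 and 1144. With a term for the replicate number, no repair gene and no gene of the other enzymes was called in siTARG1. Calls over all genes also fell in that fit, from 1974 to 1125. The siTARG1 calls of the repair genes and of the other enzymes were lost as well with any library left out. In such fits a group keeps a single library.

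**Figure D4:**
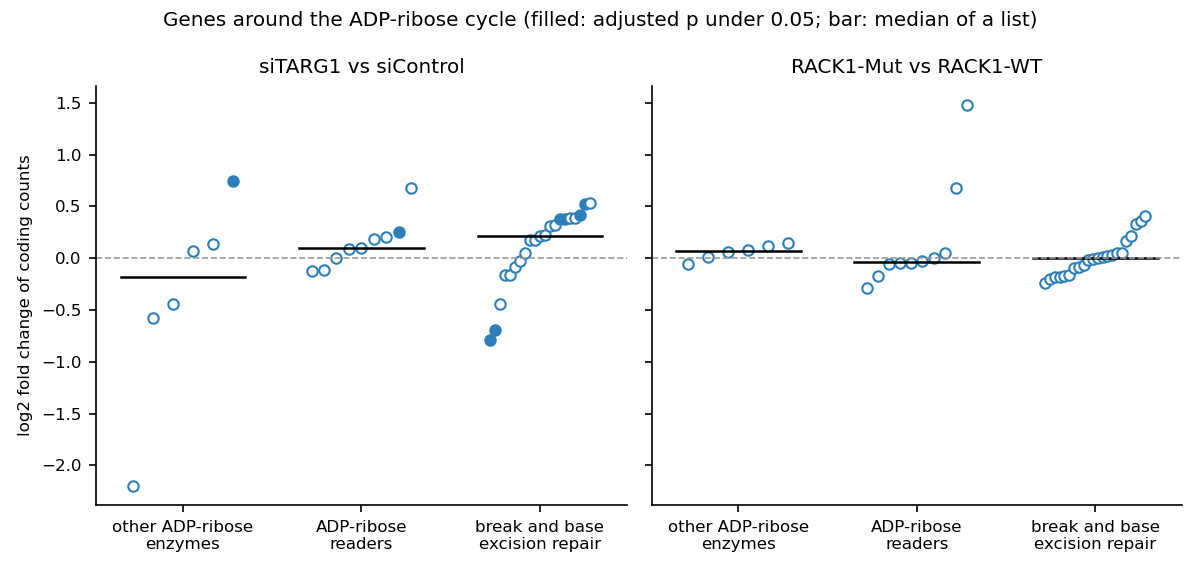
Log2 fold changes of coding counts (y axis) of the tested genes of 3 lists, with siTARG1 against siControl on the left and RACK1-Mut against RACK1-WT on the right. Points are genes, filled where DESeq2 called them, and bars are list medians. All 8 filled points are in siTARG1, 6 of them in the repair list, whose median there is 0.22.

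Footprints were correlated with those of OARD1 over the 8 libraries, among 8684 genes. The highest coefficients were those of MARCHF7 (Pearson r = 0.994 on log2 normalized counts), DENND2D (0.994), ZFHX4 (0.992), CAPNS1 (0.991) and SDHC (0.991). The coefficients are a description, since they are set mainly by the pair of siTARG1 libraries. They do not measure the size of a change. MARCHF7 had 528.3 and 505.9 normalized counts in siControl and 240.7 and 250.6 in siTARG1. On the same scale OARD1 had 141.3 and 80.61, and then 6.794 and 7.871. CAPNS1, the small subunit of calpain, had 2930 and 2932 normalized counts in siControl and 814.3 and 838.3 in siTARG1, and 2746 to 2936 in the RACK1 libraries. SDHC, a subunit of succinate dehydrogenase, had 1144 and 1120 in siControl, 355.2 and 362.1 in siTARG1 and 976.2 to 1047 in the RACK1 libraries. Of the 7 other members that pass the minimum of 50 normalized counts on average, HPF1 had the highest coefficient with OARD1 at 0.828 and PARG the lowest at -0.698.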

How the data were processed

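Ribosome footprints were analysed in 8 libraries, 2 in each of 4 groups taken from the sample titles. The deposited counts are whole numbers of footprints per exon, 5′ UTR, coding and 3′ UTR part of 20165 merged gene regions, made by the authors with Plastid on hg19 with GENCODE release 24 after clipping, removal of rRNA with Bowtie 1.1.2 and alignment to transcripts with TopHat2 2.1.1. Many hits per read were allowed, which affects genes with near-identical copies. The file headers record reads of 26 to 36 nt placed 14 nt in from their 5′ ends. The methods instead state a 3′ offset, and which was used is not resolved here. Whether reads with the same molecular identifier were collapsed is not given in the sources used here. The deposited RPKM values, scaled by the authors to length and to library alignments, served only as an alternative for the ratios. The other deposited columns are the lengths of the regions' parts.

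Symbols came from GENCODE release 44 lifted to GRCh37 and were found for 19612 regions (97.3%), and 553 had none. The study's methods name DESeq2, which was used here as version 1.42.0 in R 4.3.3 on coding counts of the 4 libraries of a comparison. Genes with at least 10 counts in all were tested, with calls at an adjusted p (Benjamini-Hochberg) under 0.05. This filter and this threshold were chosen here. The interaction was fitted to all 8 libraries. edgeR 4.0.16 (quasi-likelihood), TMM scaling, other filters, exon counts, a replicate term, all 8 libraries, a threshold of 0.1 and leaving out each library were alternatives. For the interaction, edgeR and the replicate term were chosen after seeing the data. Ratios were tested by exact permutation, two-sided. Single-library intervals are at 95%. Deviations of libraries that share a replicate number correlated at 0.0307 (siRNA) and 0.0832 (RACK1), so the numbers were not taken as pairs.

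The members and lists were chosen with earlier results of these data known. Genes named are all 9 members, of each list the called genes and the most abundant one, and the 5 genes most correlated with OARD1 among those with a mean of at least 50 normalized counts. A called gene of the repair list is not reported here. The scripts were tested on simulated data, with known changes given to genes with a mean of at least 50 normalized counts. Of changes of 0.5 on the log2 scale, DESeq2 recovered 23.4% for siTARG1 and 23.1% for RACK1-Mut. Of changes of 1 it recovered 57.0% and 62.0%. A gene that did not pass can therefore have changed. RNA-seq was not analysed here, so values are footprint abundance and not translation efficiency.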

Additional observations from a re-analysis of the deposited data

Results flagged for a closer look

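The responses of OARD1 and PARP2 differed between the experiments by the interaction test of DESeq2 over all 8 libraries. For OARD1 the siTARG1 change minus the RACK1-Mut change was -3.81 on the log2 scale. For PARP2 it was 1.11 on the log2 scale. The experiments also differ in constructs, drug and transfection, which cannot be told apart from the comparisons here. The PARP2 call was lost without any of 7 of the 8 libraries, while the difference stayed at 0.998 to 1.22.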

How the results depend on the processing

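OARD1 was called in siTARG1 under each alternative that tested it, at -4.28 to -3.47 on the log2 scale with a library left out. A filter of 10 counts in every library removed it, which left 0 members called, and edgeR called 3. Over all genes, siTARG1 calls were 3470 by edgeR, 1125 with the replicate block and 564 to 744 with a library left out, and RACK1-Mut calls were 30, 6 and 1 to 3. The replicate block left the members' calls within each comparison as they were, but of the members called in the interaction it left 1, and 1 to 2 remained called with a library left out, OARD1 being that 1.

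Small differences changed sign. With exon counts MACROD1 in RACK1-Mut was at -0.00855. With a library left out, log2 differences ranged from -0.0675 to 0.135 for MACROD1 and from -0.0114 to 0.245 for ADPRS in siTARG1, and from -0.173 to 0.225 for MACROD1 and from -0.112 to 0.398 for ADPRH in RACK1-Mut. The interaction ranged from -0.18 to 0.218 for MACROD1, from -0.027 to 0.496 for MACROD2 and from -0.0659 to 0.536 for PARG. In RACK1-Mut the summed density of the erasers other than OARD1 differed by -4.88 to 9.69, and the PARP1 to HPF1 ratio by -0.0508 to 0.339. Counts were low for ADPRH throughout, for MACROD2 in the siRNA experiment and for OARD1 in siTARG1.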
